A study of Mus musculus with 18 samples.

Results

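Replicate 3 of mouse TKO cells that express p53ER was compared with replicates 1 and 2 of the same cells. p53ER is the tumour suppressor p53 fused to an estrogen receptor, a protein that becomes functional once 4-hydroxytamoxifen (4-OHT) is added. The series holds 18 arrays, and the 9 arrays of p53ER cells were picked by their titles. Of these, 3 arrays bear the replicate number 3 and 6 bear the number 1 or 2. Each number has 1 array of cells given 100 nM 4-OHT for 4 h, 1 array of cells given vehicle for 4 h and 1 array of cells at 0 h. The 9 arrays of uninfected TKO cells follow the same layout and serve as the cells without the fusion. The labels describe the cells of both types as telomere dysfunctional, name TKO as the cell line without spelling it out, and give DMEM with serum and antibiotics as the medium for all. They name neither the vector nor a promoter for the fusion, and no cells infected without it, so infection and fusion cannot be told apart between the 2 cell types. The labels also do not say what a replicate number stands for. The arrays of number 3 may share a culture, a passage or a day, so the p-values below measure only the spread between arrays, and what the number stands for cannot be told apart from a batch.

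Several gene programmes are named below. NRF2 is a transcription factor that is held down by KEAP1 in resting cells and, when electrophiles or oxidants disable that hold, raises enzymes that make and use glutathione, reduce quinones and supply NADPH. Genes of the G2 phase and of mitosis are transcribed late in the cell cycle and are repressed in cells that leave it, through promoter elements bound by the MuvB complexes. p53 raises the CDK inhibitor p21 (Cdkn1a), its own inhibitor Mdm2 and genes of cell death. Cells under telomere or DNA damage stress can secrete chemokines, cytokines and matrix proteases, a group known as the senescence-associated secretory phenotype.

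Signals were brought to the same 2% trimmed mean on every array and used as log2 values after an offset of 3.93 was added. Of 18194 genes on the array, the 10916 brighter ones were tested. Over these genes the replicate 3 arrays of p53ER cells correlated with each other with a median r of 0.940 over 3 pairs and with the arrays of replicates 1 and 2 with a median r of 0.925 over 18 pairs. The arrays of replicates 1 and 2 correlated with a median r of 0.959 over 15 pairs. On the second principal component, which held 21.8% of the variance, the 6 replicate 3 arrays of both cell types lay between -32.8 and -22.1 and the other 12 arrays between 7.14 and 21.2. The first component, with 23.9%, set apart 3 arrays, namely p53ER 0 h replicate 3, p53ER vehicle replicate 1 and uninfected 0 h replicate 2. The 3'/5' signal ratio of the Gapdh control probe sets, a sign of RNA quality, was 0.891 to 0.950 on the p53ER replicate 3 arrays and 0.782 to 0.833 on those of replicates 1 and 2, without overlap. The same ratio for actin overlapped, at 1.08 to 1.13 and 1.05 to 1.17. The part of the Gapdh ratio in the results below was not tested.

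In p53ER cells 624 genes were higher in replicate 3 than in replicates 1 and 2 and 701 were lower, at an adjusted p under 0.05 in limma. These are 5.72% and 6.42% of the genes tested, the background against which the counts of each gene group below are read. At an unadjusted p under 0.05 there were 2731 genes. The difference exceeded 2-fold for 132 of the higher and 225 of the lower genes. All 1325 had the same sign against replicate 1 and against replicate 2, and 1318 had it in each of the 3 conditions. The same arrays chose these genes, so the agreement in sign is no separate support. The number called depends on single arrays: it was 652 without the 4-OHT array of replicate 3 and 827 without the 0 h array of replicate 3. Of the 99 called genes that a fixed rule names below, 64 were still called whichever of the 9 p53ER arrays was left out, and all 99 kept their sign. The rule picked these genes on the same arrays for large differences, so their kept sign is no separate support either. Without regard to the test, 804 genes, or 7.37%, had all 3 replicate 3 arrays above the 6 others, and 811, or 7.43%, had all 3 below. The median over all genes tested was -0.0006 on the log2 scale. All differences below are replicate 3 minus the mean of replicates 1 and 2 within condition, in log2 units, and "called" means past that adjusted p.

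Gsta4, a glutathione S-transferase that clears lipid aldehydes such as 4-hydroxynonenal, had the largest positive difference of the genes whose arrays did not overlap. Its signal was 779.6, 876 and 1023 in replicate 3 with 4-OHT, with vehicle and at 0 h, against 71.2, 68.6 and 62.3 in replicate 2 and 70.3, 96.7 and 81.1 in replicate 1. Every replicate 3 array was thus far above every other p53ER array, in each condition. On the log2 scale Gsta4 averaged 9.80 ± 0.20 in replicate 3 and 6.29 ± 0.21 in replicates 1 and 2 (SD over arrays, n = 3 and 6), where the SD includes any effect of condition. The difference was 3.51 (SE 0.21, limma adjusted p = 1.21e-07), an 11.4-fold higher level. Nqo1, a quinone reductase often used as the readout of NRF2, had signals of 2704, 2864 and 2670.4 in replicate 3 with 4-OHT, with vehicle and at 0 h, against 862, 902 and 826 in replicate 2 and 832, 1096 and 773 in replicate 1. The groups did not overlap, and the difference was 1.64 (SE 0.11, limma adjusted p = 2.78e-07).

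**Figure D1:**
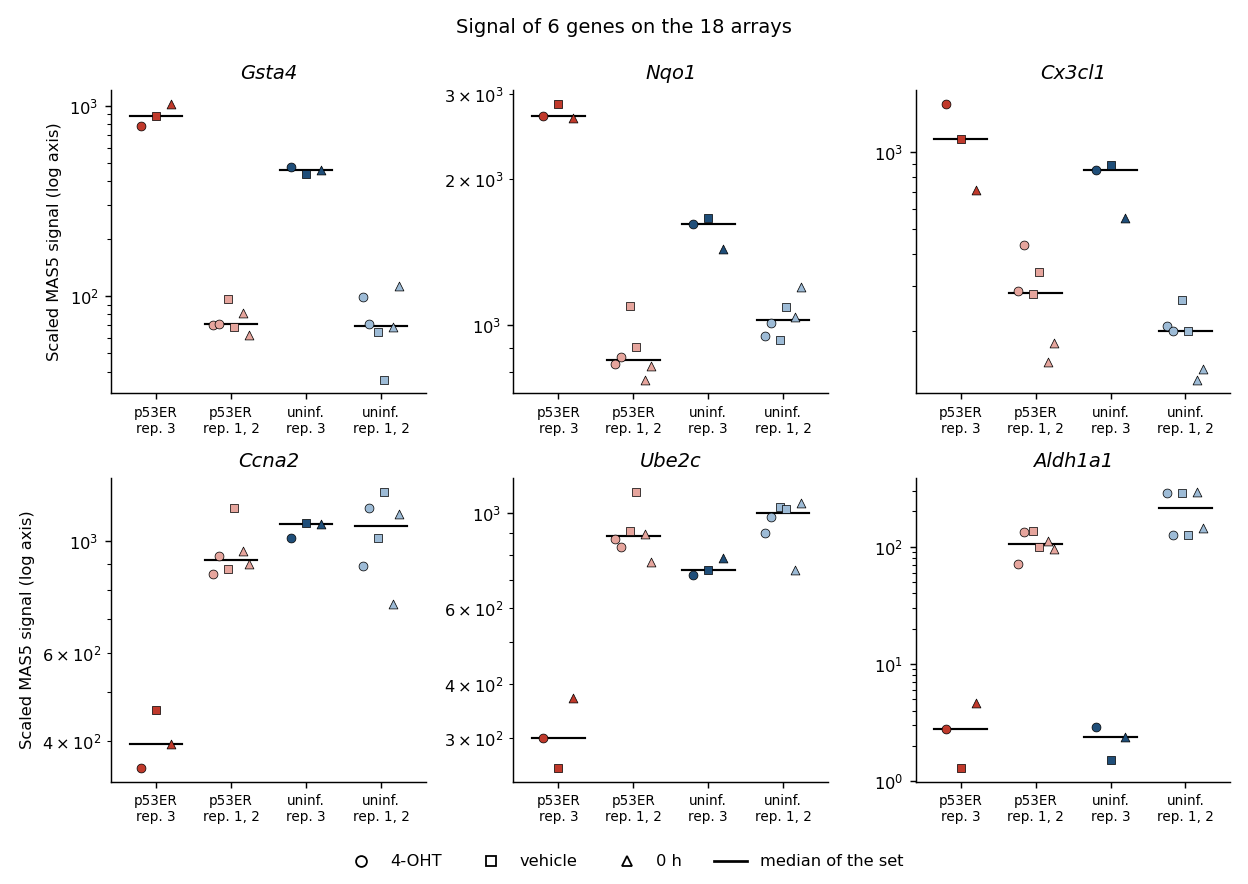
Scaled signal (log axis) of 6 genes on each of the 18 arrays, in p53ER cells and uninfected cells, replicate 3 left of replicates 1 and 2; symbols mark the condition and bars the median of each set. Gsta4, Nqo1 and Cx3cl1 were higher in replicate 3 of both cell types, Ccna2 and Ube2c were lower in replicate 3 of p53ER cells, and Aldh1a1 was under a signal of 5 on all 6 replicate 3 arrays.

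Of 30 NRF2 target genes tested, 21 were higher in replicate 3, 2 were lower and 7 were not called, and the median difference was 0.78. All 3 replicate 3 arrays lay above the others for 18 of them. By array, the median of the list relative to the mean of p53ER replicates 1 and 2 was 0.62 to 0.89 in replicate 3 and -0.11 to 0.23 in replicates 1 and 2. The exporter Abcc4 had a difference of 1.49 (SE 0.20), with signals of 224 to 294 in replicate 3 against 64.3 to 111. Blvrb, which reduces biliverdin, had 1.46 (SE 0.13), with signals of 500.1 to 637 in replicate 3 against 162 to 221. Taldo1, an enzyme of the pentose phosphate pathway that feeds NADPH supply, had 1.33 (SE 0.15), with 718 to 881 against 285 to 402. For these 3 genes no array of replicate 3 overlapped with the others, and their limma adjusted p-values were 0.000163, 5.23e-06 and 4.76e-05.

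Further members, described after their values were seen, cover the steps of glutathione and thioredoxin chemistry. The cystine importer Slc7a11 had a difference of 1.27, the catalytic subunit of glutamate-cysteine ligase Gclc 0.93, glutathione reductase Gsr 1.05 and thioredoxin reductase Txnrd1 1.26. All 4 were called. The glutathione transferases Gstp1 (1.27) and Gstm1 (1.19), sulfiredoxin Srxn1 (0.96) and heme oxygenase Hmox1 (0.73) were called higher as well. Gclm, the modifier subunit of glutamate-cysteine ligase, was not called at -0.02 (limma adjusted p = 0.960). The 2 members called lower were Gstm2 at -1.20 and Mgst1 at -0.87, both glutathione transferases and both also lower in replicate 3 of uninfected cells. The mu-class transferases Gstm1 and Gstm2 are closely similar in sequence, so the split between them is uncertain. The transcripts of the pathway's own regulators differed less. Of 8 tested, only Sqstm1, an adaptor that binds KEAP1, was called (0.50, SE 0.12, limma adjusted p = 0.0116), while Nfe2l2, which encodes NRF2, was at 0.14 and Keap1 at -0.15, neither called.

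Among 27 other glutathione, peroxide and aldehyde enzymes, 6 were higher and 4 lower, with a median of 0.15. Aldh3a1, an aldehyde dehydrogenase of cornea and of cells given aryl hydrocarbons, had signals of 421, 399.5 and 497 in replicate 3 with 4-OHT, with vehicle and at 0 h, against 38.9 to 47.1 in replicate 2 and 51.6 to 96.6 in replicate 1. It was higher on every array of replicate 3, by 2.86 (SE 0.25, limma adjusted p = 5.23e-06). A pair of enzymes of the same superfamily went the other way. Aldh1a1, a cytosolic enzyme that oxidises retinal and other aldehydes, had signals of 2.80, 1.30 and 4.60 in replicate 3 with 4-OHT, with vehicle and at 0 h, against 133, 98.9 and 96.2 in replicate 2 and 71.9, 136 and 112 in replicate 1. Its close relative Aldh1a7 had 5.40, 2.60 and 14.5 in replicate 3, against 357, 369 and 461 in replicate 2 and 189, 239.5 and 189 in replicate 1. The differences were -4.04 (SE 0.33) and -4.79 (SE 0.40), and since the replicate 3 signals lie near the offset of the log scale their size depends on it. The 2 genes are close paralogs, so the split between them is uncertain. Gstk1 (-1.47), a mitochondrial and peroxisomal glutathione transferase, and Gpx7 (-1.09), a peroxidase of the endoplasmic reticulum, were also lower.

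Ccna2, which encodes cyclin A2 of the S and G2 phases, had signals of 354, 461 and 395 in replicate 3 with 4-OHT, with vehicle and at 0 h, against 937, 1166 and 903 in replicate 2 and 859.7, 880.2 and 959 in replicate 1. The highest replicate 3 array was below the lowest of the others, and the difference was -1.23 (SE 0.14, limma adjusted p = 5.01e-05). A second Ccna2 probe set gave -0.98. Of 43 genes of G2 and mitosis tested, 28 were lower in replicate 3 and none was higher, against a background of 6.42% lower. The difference was negative for 42 of the 43, the exception being Pttg1, securin, at 0.21, and the median was -1.04. The 3 replicate 3 arrays lay below the 6 others for 28 genes, which are the called ones except that Kif4 was called with overlap and Incenp was separated without a call.

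The members called cover successive steps of mitosis. The outer kinetochore subunit Nuf2 was at -1.63 (SE 0.19), with signals of 46.0 to 100.3 in replicate 3 against 197.5 to 279.6. Anillin, Anln, which builds the cleavage furrow, was at -1.58 (SE 0.18), with 138 to 194 against 439 to 583. Ube2c, the ubiquitin-conjugating enzyme of the anaphase-promoting complex, was at -1.54 (SE 0.15), with 256 to 372 against 769.8 to 1119.7. Arrays of replicate 3 and of the others did not overlap for any of these 3 genes, with limma adjusted p-values of 5.32e-05, 5.01e-05 and 1.02e-05. The kinesin Kif20a (-1.51) and the central spindle organiser Prc1 (-1.42) were lower too. By array, the median of the list relative to p53ER replicates 1 and 2 was -1.08 to -0.99 in replicate 3 and -0.05 to 0.09 in replicates 1 and 2. These are bulk RNA values, in which fewer cells in mitosis and less RNA per mitotic cell cannot be told apart.

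Promoter motifs were searched in this group and in the NRF2 list. The RefSeq table for GRCm38.p6 held a promoter window, 250 bases before to 50 bases after a gene's start, for 36 of the 43 mitotic genes. It was searched on both strands for TTTGAA, the letters of the cell cycle homology region, and for CCAAT, the letters read by NF-Y, which do not overlap each other. TTTGAA was present in 27 of the 36 windows, 75%, against 11.6% of the 8858 windows of tested genes and 18.1% of all 27025 windows. CCAAT was present in 28, 77.8%, against 38.5% and 37.9%. Of the 22 windows of members called lower, 16 held TTTGAA and 16 held CCAAT, 72.7% each, no more than in the whole list. The list was made of known genes of G2 and mitosis. These shares therefore describe the list and not the replicate 3 difference. For the NRF2 list the windows were searched for TGACNNNGC, the core letters of the antioxidant response element, where N is any base. It was present in 7 of 25 windows, 28%, against 14.5% of the windows of tested genes. Of the 16 windows of members called higher, 3 held it, 18.8%. The windows of Nqo1, Ephx1 and Taldo1 did not hold it. Bases outside the window were not searched, so these genes may hold it farther from the start. A match is a description of letters and not of binding. Ccnb2 encodes cyclin B2, an activator of CDK1, and its window is chr9:70421505-70421804 on the minus strand. Racgap1 encodes a GTPase-activating protein of the central spindle, and its window is chr15:99651607-99651906 on the minus strand. Both are given 5′ to 3′ with TTTGAA and CCAAT, or ATTGG for CCAAT on the other strand, in capitals.
Ccnb2: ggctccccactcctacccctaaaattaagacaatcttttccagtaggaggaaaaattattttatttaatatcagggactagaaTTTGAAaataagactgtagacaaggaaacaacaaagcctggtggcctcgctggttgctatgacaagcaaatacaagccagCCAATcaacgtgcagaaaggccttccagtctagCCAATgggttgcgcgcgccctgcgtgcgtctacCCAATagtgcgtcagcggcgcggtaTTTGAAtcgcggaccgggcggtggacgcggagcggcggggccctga
Racgap1: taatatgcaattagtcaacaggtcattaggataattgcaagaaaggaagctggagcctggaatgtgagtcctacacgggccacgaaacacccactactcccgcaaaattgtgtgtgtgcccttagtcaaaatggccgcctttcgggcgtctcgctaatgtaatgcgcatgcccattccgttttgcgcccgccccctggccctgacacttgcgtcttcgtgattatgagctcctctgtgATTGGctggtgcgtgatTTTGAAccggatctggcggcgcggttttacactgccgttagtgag
Ccnb2 held CCAAT starting at -87, -54 and -21 and TTTGAA at -167 and 5, counted from the gene's start. Racgap1 held TTTGAA at 6 and CCAAT on the other strand at -12. Ccnb2 had signals of 148, 111 and 152 in replicate 3 with 4-OHT, with vehicle and at 0 h, against 334.5, 292 and 268 in replicate 2 and 363, 385 and 325 in replicate 1. Ccnb2 differed by -1.24 (SE 0.16, limma adjusted p = 8.29e-05) and Racgap1, named after its value was seen, by -1.25 (SE 0.14).

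**Figure D2:**
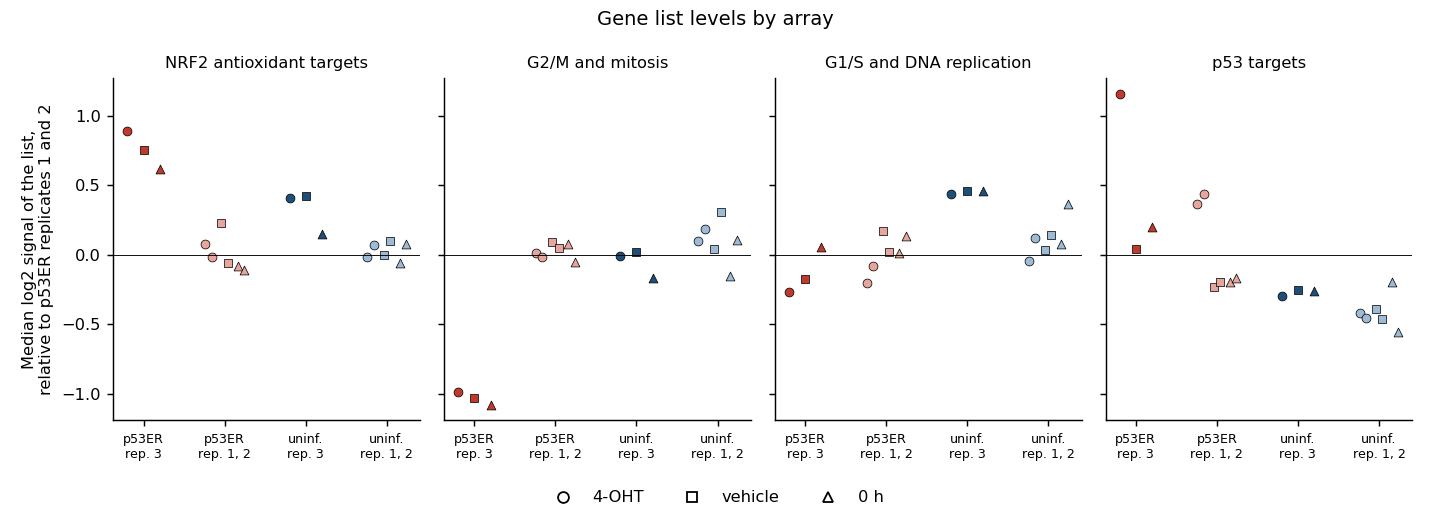
Median log2 signal of 4 gene lists on each array, relative to each gene's mean over p53ER replicates 1 and 2 (vertical axis), in p53ER and uninfected cells with replicate 3 on the left of each pair; symbols mark the condition. The mitotic list stood at -1.08 to -0.99 on the 3 p53ER replicate 3 arrays and at -0.17 to 0.02 on the uninfected ones.

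Of 35 genes of the G1/S transition and of replication tested, 5 were lower and none was higher, and the median was -0.19. The 5 were Rfc4 (-0.55), a clamp loader subunit, Rrm1 (-0.52), the large subunit of ribonucleotide reductase, Prim1 (-0.44), a primase subunit, and the D-type cyclins Ccnd1 (-0.43) and Ccnd2 (-0.35). The helicase subunits Mcm2 to Mcm7 ran from -0.32 to 0.40 and none was called. By array the list stood at -0.27 to 0.06 in replicate 3 and -0.20 to 0.17 in replicates 1 and 2, so the arrays overlapped. Of the 5 calls only that of Rrm1 held whichever array was left out.

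Of 21 CDK inhibitors and quiescence genes, 4 were higher and 5 lower, with a median of 0.05. Cdkn2d, the INK4 inhibitor p19, was at -1.90 (SE 0.21), with signals of 20.5, 35.4 and 66.8 in replicate 3 with 4-OHT, with vehicle and at 0 h, against 114 to 193 in replicates 1 and 2. Cdkn1b, the inhibitor p27, was at -0.91 (SE 0.16), with 51.4 to 68.6 in replicate 3 against 92.3 to 121.7. The arrays did not overlap for either gene, and the limma adjusted p-values were 2.85e-05 and 0.00152. Klf4, a transcription factor of arrested and of pluripotent cells, was at -1.23, and Gas6, a ligand of the receptor kinase Axl, at -1.74. The gene of this list with the largest positive difference was Cdkn1a, described with the p53 targets.

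The estrogen receptor part of the fusion gave a check of the labels. The brightest Esr1 probe set had signals of 638, 1332 and 732 in replicate 3 with 4-OHT, with vehicle and at 0 h, against 149.8, 114 and 190.5 in replicate 2 and 157, 214 and 159 in replicate 1. In uninfected cells it was between 3.60 and 23.4. Replicate 3 thus lay above replicates 1 and 2 on every array, by 2.38 (SE 0.31, limma adjusted p = 0.000138), or 5.20-fold. The other 2 Esr1 probe sets did not show this, at -0.34 and -1.45, with mean signals of 24.3 and 3.80 in replicate 3 against 31.7 and 17.5. A probe set annotated to Mycn behaved in the same way, with 13862, 14741 and 14428 in replicate 3 with 4-OHT, with vehicle and at 0 h, 2474 to 3117 in replicates 1 and 2, and 7.60 to 92.3 in uninfected cells. Its difference was 2.37 (SE 0.57, limma adjusted p = 0.0202), a call lost when any 1 of the replicate 3 arrays was left out (limma adjusted p = 0.0769 to 0.101). The other 2 probe sets of Mycn, a MYC family transcription factor, had mean signals of 8.20 and 6.20 in replicate 3 and 8.50 and 4.90 in replicates 1 and 2, so the bright one is given by its annotation only and not as a level of Mycn.

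Of 30 p53 targets, 12 were higher in replicate 3 and none was lower, with a median of 0.47, while the 3 replicate 3 arrays lay above all others for 2 of them, Plk2 and Zmat3; many of these genes varied with 4-OHT within each replicate. Cdkn1a had signals of 2285, 624 and 373 in replicate 3 with 4-OHT, with vehicle and at 0 h, against 1090.1, 221.5 and 112 in replicate 2 and 824, 149.6 and 196 in replicate 1. In each condition replicate 3 was the highest of the replicates, and the difference was 1.44 (SE 0.17, limma adjusted p = 6.63e-05). Mdm2 had 2322, 400.5 and 217 in replicate 3, against 1032, 145 and 171 in replicate 2 and 1120.2, 99.4 and 162 in replicate 1. The Mdm2 difference was 1.06 (SE 0.22, limma adjusted p = 0.00496). The next brightest probe set for Mdm2 gave 0.54, which was not called. The Mdm2 call was lost without the vehicle array of replicate 3 (limma adjusted p = 0.0661). Zmat3, an RNA-binding zinc finger protein and p53 target, was at 1.24 (SE 0.20) and did not overlap, with 128 to 191 in replicate 3 against 42.4 to 117. Pmaip1, the death effector Noxa, was at 0.46 and not called, with 393, 29.6 and 10.0 in replicate 3 against 185, 20.5 and 22.1 in replicate 2 and 129.7, 6.80 and 25.3 in replicate 1. The median difference of the list was 0.83 among arrays with 4-OHT, 0.41 among those with vehicle and 0.25 at 0 h. Without the 4-OHT array of replicate 3 the number of p53 targets called was 6, without the vehicle array 8. The signal of the Esr1 probe set was higher in replicate 3 as well, but within replicate 3 it was highest with vehicle, and its part in these values was not tested.

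**Figure D3:**
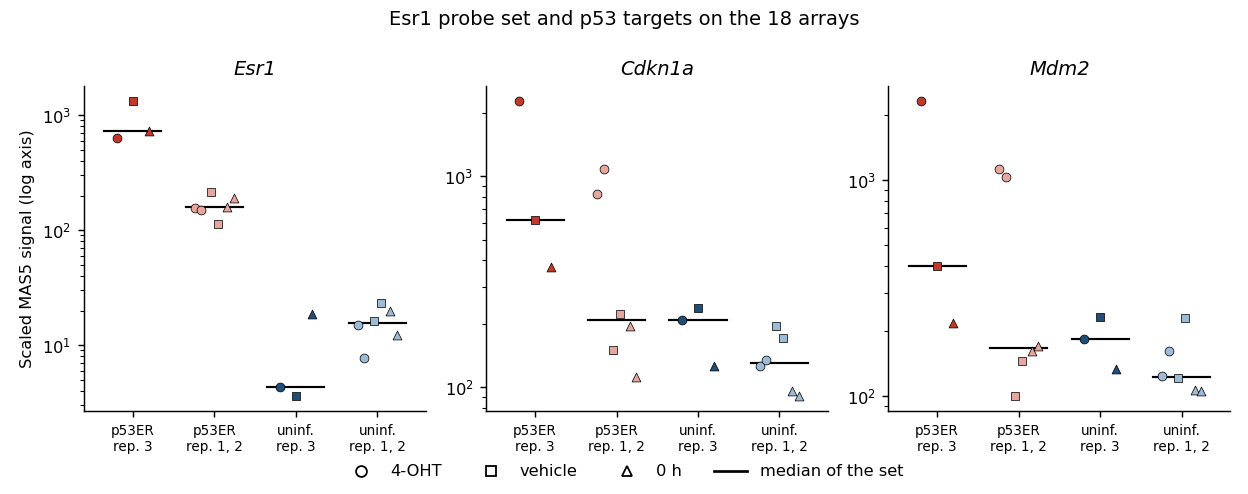
Scaled signal (log axis) of the brightest Esr1 probe set, Cdkn1a and Mdm2 on each of the 18 arrays, replicate 3 left of replicates 1 and 2; symbols mark the condition and bars the median of each set. Esr1 was 638 to 1332 in p53ER replicate 3, and the arrays with 4-OHT carried the highest Cdkn1a and Mdm2 signals of each p53ER set.

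The response of p53 targets to 4-OHT itself can be read within each replicate as 1 array with 4-OHT minus 1 with vehicle, with no replicate check. The median over the 30 targets was 1.24 in replicate 3, 0.59 in replicate 2 and 0.90 in replicate 1. The replicate 1 values subtract the p53ER vehicle array of replicate 1, which stood apart on the first component. The order differed between genes, and 5 of the 30 had that of the medians. Ddit4l, an inhibitor of mTOR signalling, was one of them, at 3.35 in replicate 3, 1.27 in replicate 2 and 2.001 in replicate 1. Cdkn1a responded by 1.87 in replicate 3, 2.28 in replicate 2 and 2.43 in replicate 1, and Mdm2 by 2.52, 2.79 and 3.44 in the same order. Phlda3, a p53 target that holds back the kinase AKT, gave 1.40, 1.45 and 1.46. No gene was called in the test of whether the replicate 3 difference varied between the 3 conditions (0%). The smallest limma adjusted p in that test was 0.173. An unadjusted limma p under 0.05 was found for 626 of the 10916 genes tested, where 5% would pass on average without any effect. That test has 6 residual degrees of freedom, and without the 2 arrays farthest out on the first component, a setting added after the values were seen, it called 5 genes. They were Smc4, Gpbp1l1, Ptpn23, Inhba and Cav2.

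Chemokine genes were among the largest positive differences. Cx3cl1, the membrane-bound chemokine fractalkine, had signals of 1546, 1128 and 710.2 in replicate 3 with 4-OHT, with vehicle and at 0 h, against 433, 339 and 180.0 in replicate 2 and 287, 278 and 151 in replicate 1. Replicate 3 lay above all others even at 0 h, where each replicate had its lowest signal, and the difference was 2.02 (SE 0.14, limma adjusted p = 3.51e-07). A second probe set gave 1.504, and the 2 dimmest, with mean signals under 25, gave 0.63 and -0.30. Ccl5, which attracts T cells and monocytes, had 1499.7, 1357 and 2207 in replicate 3, against 195, 139.5 and 165 in replicate 2 and 268, 287 and 243 in replicate 1. Cxcl1, which attracts neutrophils, had 2129, 2763 and 1141 in replicate 3, against 612, 588 and 450.1 in replicate 2 and 505, 825 and 345 in replicate 1. Neither gene overlapped, with differences of 2.96 (SE 0.31) and 1.81 (SE 0.27). Of 13 chemokines tested, these 3, Ccl2 (1.25) and Ccl7 (0.69) were called higher, none was called lower, and the median was 0.69. The calls of Ccl2 and Ccl7 were lost without the 4-OHT array of replicate 3 and without its vehicle array, which left 3. The interferon-induced chemokine Cxcl10 was at -0.14 and not called.

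Of 30 cytokine and growth factor genes, 5 were higher and 3 lower, with a median of 0.12. Lif, a cytokine of the interleukin 6 family, had 2215, 2090.2 and 267 in replicate 3 with 4-OHT, with vehicle and at 0 h, against 594, 280.1 and 57.1 in replicate 2 and 228, 133 and 74.1 in replicate 1. Its difference was 2.65 (SE 0.35, limma adjusted p = 0.000377), and in each condition replicate 3 was the highest, although its 0 h array was below both 4 h arrays of replicate 2. Il11, of the same family, was at 1.43 (SE 0.31), the angiogenic factor Vegfa at 1.42 (SE 0.18) and Tgfb1 at 1.37 (SE 0.19). Il6, named after its value was seen, was at 0.17 and not called. Bdnf, a neurotrophin, was lower at -0.91.

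Proteases, inhibitors and other secreted factors went both ways, with 9 of 24 higher, 4 lower and a median of 0.53. Lcn2, the iron-binding lipocalin 2, had 779.7, 705 and 839 in replicate 3 with 4-OHT, with vehicle and at 0 h, against 69.5 to 83.9 in replicate 2 and 70.3 to 94.6 in replicate 1. The stromelysin Mmp3 had 909.7, 776 and 715 in replicate 3, against 119 to 144 in replicate 2 and 201 to 234 in replicate 1. Both were higher on every replicate 3 array, by 3.20 (SE 0.31) and 2.23 (SE 0.39), with limma adjusted p-values of 2.85e-05 and 0.00288. Plat, tissue plasminogen activator, was at 1.53. Timp3, an inhibitor of metalloproteases bound to the matrix, had 610.4, 542 and 381 in replicate 3, against 2859, 3139 and 3072 in replicate 2 and 2013, 1732 and 2078.5 in replicate 1, a difference of -2.26 (SE 0.24, limma adjusted p = 5.01e-05). Ptx3, a pentraxin of innate immunity, was at -2.08. In uninfected cells 2 of the 24 were higher and 7 lower, with a median of -0.16.

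Of 27 genes of the extracellular matrix, 8 were lower and 3 higher, with a median of -0.05. Elastin, Eln, was at -1.72 (SE 0.33), with 37.9 to 61.0 in replicate 3 against 85.2 to 282. Thrombospondin 2, Thbs2, was at -1.45 (SE 0.18), with 41.2 to 66.9 against 113 to 166. The laminin chain Lama4 (-1.57), lysyl oxidase Lox (-1.42) and Col3a1 (-1.40) were lower and, like Eln and Thbs2, without overlap between arrays. Of the main fibroblast matrix, Col1a2 (0.06) and Fn1 (0.09) were not called, while Col1a1 (-0.66) and Col5a2 (-0.70) were called lower. Tnc, tenascin C, was higher at 1.32. Of 15 targets of YAP and of serum response factor, 6 were lower and none higher, with a median of -0.44. They included the contractile genes Cnn1 (-1.64), Myl9 (-1.05) and Tagln (-0.60). In uninfected cells 9 of these 15 genes were lower in replicate 3 and none higher, with a median of -0.50. Of the 27 matrix genes 9 were lower and 3 higher there, with a median of -0.42.

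**Figure D4:**
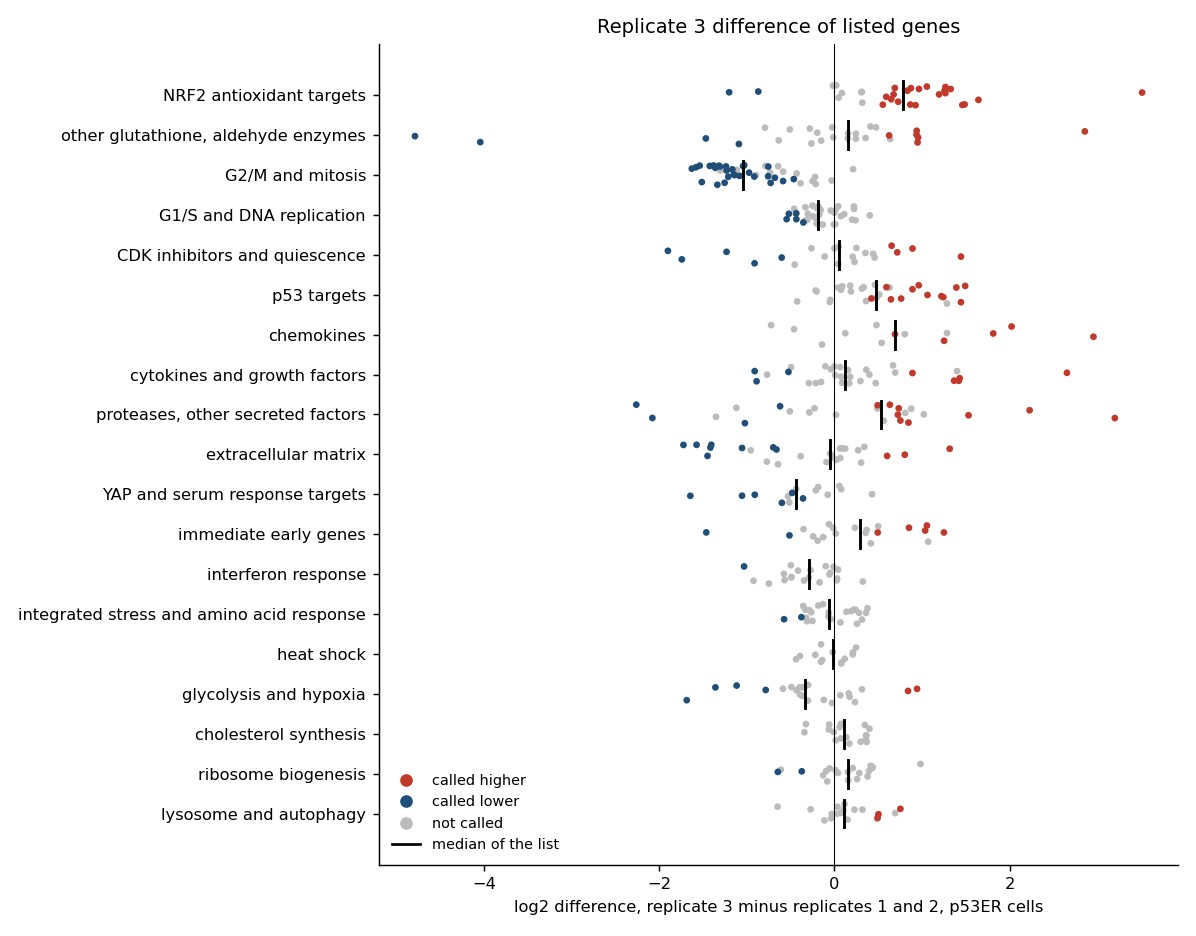
Each point is 1 tested gene of 19 lists, placed by its replicate 3 minus replicates 1 and 2 difference in p53ER cells (horizontal axis, log2); red is called higher, blue called lower and grey not called, and bars are list medians. The median was -1.04 for the G2/M and mitosis list and 0.78 for the NRF2 list.

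The labels give no cell type of origin. Of 10 mesenchymal markers tested, 4 were lower, Col3a1, Pdgfrb (-1.21), Thy1 (-0.83) and Col1a1 (-0.66), and none was higher. In replicate 3 of uninfected cells 4 of the 10 were lower as well and none was higher. In p53ER cells the summed signal of the 10 was 42640 to 48267 in replicate 3 and 39535 to 56206 in replicates 1 and 2, so it overlapped. That sum is set by the brightest members, such as Vim with a mean signal of 12613 in replicate 3. Dimmer markers that were called lower, such as Pdgfrb with 118, hardly move it. The mean signal in replicate 3 and in replicates 1 and 2 was 1.10 and 5.80 for the leukocyte marker Ptprc, 3.20 and 5.90 for the endothelial Pecam1, 4.50 and 5.10 for the epithelial Cdh1 and 108 and 117 for the epithelial Epcam, with no marker listed at 0 in both groups. The 8 epithelial markers summed to 191 to 259 in replicate 3 and 213 to 279 in replicates 1 and 2, and none of the 3 tested was called. The 9 blood markers summed to 269 to 307 and 240.4 to 286, with none of 5 tested called. The 6 endothelial markers summed to 91.5 to 123.9 and 87.4 to 172, with none of 2 tested called. The 6 muscle markers were lower in sum, at 183.5 to 280 in replicate 3 and 291 to 434 in replicates 1 and 2, and skeletal actin Acta1 was called (-0.81). The other muscle markers tested, Ckm (0.23) and Des (0.01), were not called and not lower. The 5 neural markers were higher in sum, at 275 to 384 and 174 to 222. That sum included Sox2, a transcription factor of stem and neural cells, at 2.32 (SE 0.27), with 156, 181 and 107 in replicate 3 with 4-OHT, with vehicle and at 0 h, against 21.1 to 33.3 in replicates 1 and 2. Sox2 was the only neural marker called. Gfap (0.51), Tubb3 (0.43), Sox10 (0.03) and Mbp (-0.55) were not.

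The other gene with a pattern like that of Aldh1a1 was Rps4l, which resembles a ribosomal protein gene. It had signals of 4.90, 5.60 and 2.30 in replicate 3 with 4-OHT, with vehicle and at 0 h, against 81.0 to 140.0 in replicates 1 and 2, a difference of -3.91 (SE 0.21, limma adjusted p = 6.03e-08). A count made after these values were seen asked which tested genes were under a signal of 25 on all 6 replicate 3 arrays of both cell types and over 50 on the other 12. It found 3 genes, Rps4l, Aldh1a1 and Aldh1a7, and 0 genes with the opposite pattern. Genes dim on the 12 other arrays can fall under the brightness filter before the count. The counts of the opposite patterns therefore cannot be set against each other. Prelp, a small leucine-rich matrix protein, had 60.4, 32.9 and 94.5 in replicate 3 against 569 to 1024 (-3.56), and Rpl39l, a further gene that resembles a ribosomal protein gene, had 12.1 to 15.4 against 79.6 to 231 (-2.81). The largest other negative differences without overlap were in Klk10 (-2.64), Tmem45a (-2.47), Cdo1 (-2.41), Hebp1 (-2.30), Adamts5 (-2.28) and Prxl2b (-2.26). On the positive side, besides genes already given, they were in A4galt (2.85), Ramp3 (2.67), Col18a1 (2.24) and Syt13 (2.04). A4galt makes the glycolipid Gb3, and Ramp3 is a partner of calcitonin-family receptors.

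The remaining stress and growth programmes varied in their share of called genes, against 5.72% higher and 6.42% lower over all genes tested. Of 20 immediate early genes, 5 were higher, led by Ier3 (1.25), and 2 lower, led by Klf6 (-1.46), with a median of 0.29. None of 13 heat shock genes and none of 18 cholesterol synthesis genes was called. Of 24 genes of the integrated stress response 2 were lower, Atf5 (-0.57) and Ddit3 (-0.38), and 1 of 16 endoplasmic reticulum chaperones was higher, Pdia4 (0.53). The interferon response had 1 of 21 lower, Stat2 (-1.03), with a list median of -0.29, and ribosome biogenesis 2 of 20 lower. Glycolysis and hypoxia genes split, with the glucose transporter Slc2a1 (0.94) and hexokinase Hk2 (0.84) higher and Adm (-1.68), Car9 (-1.36), Bnip3 (-1.12) and P4ha1 (-0.78) lower, out of 23 tested. Of 7 aryl hydrocarbon receptor targets 3 were higher, Aldh3a1, Nqo1 and Cyp1a1, and 1 was lower, Ahrr (-0.77), the repressor of the receptor. Cyp1a1, a monooxygenase, had 518, 417 and 372 in replicate 3 with 4-OHT, with vehicle and at 0 h, against 44.3 to 233 in replicates 1 and 2, a difference of 1.98 (SE 0.29). Of 18 lysosome and autophagy genes 3 were higher, Sqstm1 and the cathepsins Ctsl (0.75) and Ctsb (0.49).

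The same comparison was made in the uninfected cells, which lack the fusion. There 500 genes, or 4.58%, were higher in replicate 3 and 630, or 5.77%, lower, 1130 in all, against 2381 without the 3 arrays that stood apart on the first component. Of the genes higher in p53ER replicate 3, 261 were also higher there, 41.8% of the p53ER genes and 52.2% of the uninfected ones. Of the lower genes 317 were shared, 45.2% and 50.3%. Gsta4 was higher by 2.62 in uninfected cells, Cx3cl1 by 1.99, Ccl5 by 2.72, Lcn2 by 1.85 and Ramp3 by 2.88, while Rps4l was at -3.70 and Prelp at -3.60. Of the 13 chemokines 6 were higher and 1 lower in uninfected cells, with a median of 0.94. In 5 genes the calls were opposite, namely Ctsb, Hmox1, Ephx1, Pclaf and Evpl.

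A test of the difference itself, p53ER minus uninfected, called 20 genes with a higher replicate 3 difference in p53ER cells and 14 with a lower one, 0.183% and 0.128% of the genes tested, with 991 at an unadjusted p under 0.05. These 34 calls depend on single arrays: there were 153 without the 3 arrays that stood apart on the first component, 59 without p53ER vehicle replicate 1 alone and 3 without p53ER 4-OHT replicate 3. With p53ER and uninfected arrays paired by condition and number, 2 genes were called. Of the 43 mitotic genes 4 were among the 14, Ccnb2 (-1.36), Ccna2 (-1.29), Racgap1 (-1.26) and Ube2c (-1.19). The mitotic list had a median of -1.04 in p53ER cells and -0.08 in uninfected cells, where 1 of 43, Prc1, was called lower. Of the 30 NRF2 targets 5 were among the 20, Ephx1 (1.40), an epoxide hydrolase, Taldo1 (1.34), Hmox1 (1.34), Nqo1 (1.04) and Txnrd1 (0.94). That list had a median of 0.78 in p53ER cells and 0.29 in uninfected cells, where 12 were called higher and 4 lower. Nqo1 signals in uninfected cells were 1620.1, 1661 and 1435 in replicate 3 with 4-OHT, with vehicle and at 0 h, against 931 to 1197 in replicates 1 and 2, a smaller gap than in p53ER cells. The G1/S list had 0 of 35 genes higher and 5 lower in p53ER cells, against 10 higher and 1 lower in uninfected cells, with medians of -0.19 and 0.36, and Pole, a replicative polymerase, was called for the difference (-0.85).

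**Figure D5:**
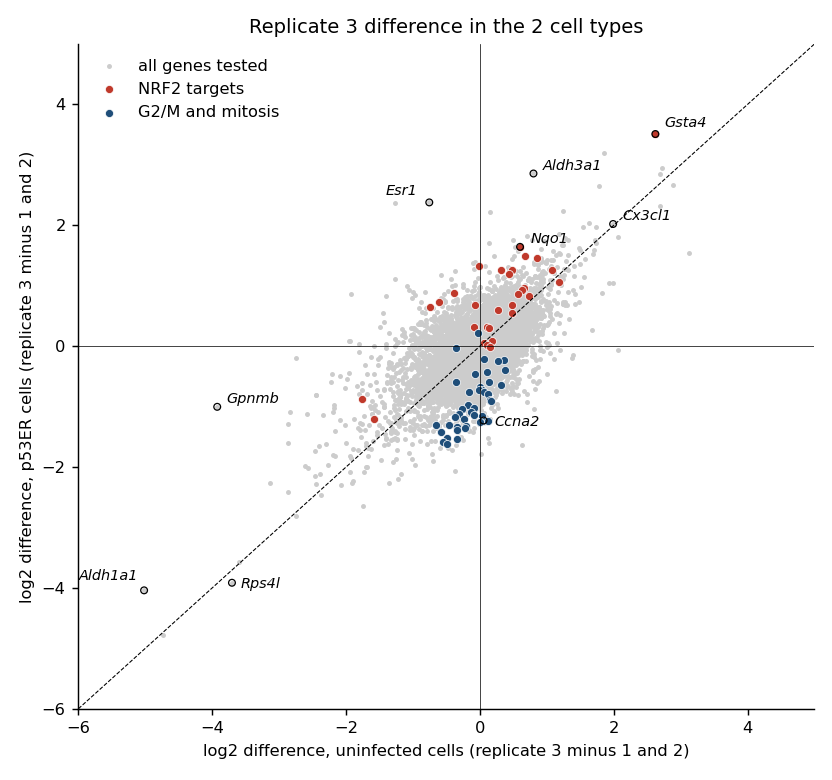
Replicate 3 minus replicates 1 and 2 difference (log2) of each tested gene in p53ER cells (vertical axis) against that in uninfected cells (horizontal axis); the dashed line marks equal differences, and the NRF2 and mitotic lists are coloured. Most mitotic genes lie below 0 on the vertical axis and near 0 on the horizontal one, and Gsta4 and Cx3cl1 lie high on both.

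Among lysosome and autophagy genes, the cathepsins Ctsd (1.37), Ctsb (0.98) and Ctsl (0.93) were called for the difference, 3 of 18. Lysosome and autophagy genes had 3 higher and none lower of 18 in p53ER cells and none higher and 8 lower in uninfected cells, with medians of 0.11 and -0.50. Aldh3a1 was called too (2.06), with 0.80 and no call in uninfected cells. Gpnmb, a glycoprotein of melanosomes and lysosomes, was lower in replicate 3 of both cell types, with differences of -1.004 in p53ER cells and -3.93 in uninfected cells. For p53 targets no gene was called for the difference, although the list had 12 higher in p53ER cells and 2 in uninfected cells, with medians of 0.47 and 0.18. The 3 genes called for the difference without the p53ER 4-OHT array of replicate 3 were Gpnmb, Ghrhr and Esr1. Without that array Ccna2 was at -1.23 and Nqo1 at 1.03, with limma adjusted p-values of 0.0774 and 0.0685.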

How the data were processed

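Total RNA of mouse TKO cells was measured on 18 Affymetrix arrays with 45101 probe sets. The deposited values are intensity values on a linear scale, made with MAS5 per the submitters' processing notes, and what the authors did beyond that is not given in the sources used here. The arrays' 2% trimmed mean ran from 47.5 to 148, and all were rescaled to their geometric mean, 78.5. An offset of 3.93, 5% of that value, was added before taking log2. The probe table listed 35890 probe sets, of which 34958 had 1 gene, 932 had several and 9211 were unlisted; 34754 were matched by Entrez ID to the RefSeq gene table, used for names. Each of 18194 genes was read by its brightest probe set, and the upper 60% by mean, 10916 genes, were tested. These choices favour bright probe sets, and MAS5 leaves dim ones noisy.

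limma 3.58.1 in R 4.3.3 fitted 6 group means and a replicate 3 term in each cell type (10 residual degrees of freedom, trended and robust prior), and for the test across conditions a replicate 3 term in each group (6 residual degrees of freedom). Two-sided p-values were corrected over all genes tested with the Benjamini-Hochberg method, and 0.05 was the threshold. The pipeline was tested on simulated data. The number of arrays limits the precision.

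The comparison, the naming rule and the 29 gene lists (586 genes, 548 on the array, 497 tested) were all chosen with earlier results of these data known, and no list was tested as a set. The rule named the 4 given markers, Mdm2, Cdkn1a and Pmaip1, the 12 largest differences each way among called genes whose arrays did not overlap, up to 5 called genes per list or else up to 2 with the largest difference, and the 3 largest each way in the difference between cell types. It gave 113 genes, 99 of them called. Members of lists beyond these were named after their values were seen. Alternatives were quantile normalization, other offsets and filters, every probe set, another variance prior, array weights, a minimum fold, other sets of arrays, a block of paired arrays and leaving out each array. Promoters were taken from RefSeq, GRCm38.p6; those of Gsta4 and Ccna2 were not analysed here.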

Additional observations from a re-analysis of the deposited data

Results flagged for a closer look

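The test of whether the replicate 3 difference was unlike in p53ER and uninfected cells picked out 20 genes with a higher and 14 with a lower difference in p53ER cells (limma, adjusted p under 0.05). Those of them that the naming rule covers follow, each as the p53ER minus the uninfected difference in log2 units. Higher in p53ER cells were Esr1 (3.13), Gpnmb (2.92), Ghrhr (2.79), Aldh3a1 (2.06), Acta1 (1.64), Taldo1 (1.34), Nqo1 (1.04), Ctsb (0.98) and Ctsl (0.93). Lower were Dlk1 (-1.57), Cxcl10 (-1.53), Ccnb2 (-1.36), Ccna2 (-1.29) and Ube2c (-1.19).

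Gpnmb, Acta1 and Ghrhr had replicate 3 differences of -1.004, -0.81 and 0.86 in p53ER cells, where that of Ghrhr was not called, against -3.93, -2.44 and -1.93 in uninfected cells, all called. For Dlk1, an inhibitor of fat cell differentiation, and Cxcl10 the p53ER difference was not called, at -0.20 and -0.14, and uninfected replicate 3 was higher, by 1.37 and 1.39. Ghrhr was dim, with signals of 24.3 to 53.4 in p53ER replicate 3 and 6.30 to 32.0 in replicates 1 and 2. Without the p53ER 4-OHT array of replicate 3, only Gpnmb, Ghrhr and Esr1 remained, 3 genes in all.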

How the results depend on the processing

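Within p53ER cells no replicate block could be fitted, since the replicate number is itself what is compared. With p53ER and uninfected arrays of the same condition and number paired as a block, added after seeing the data, 2 genes were called for the difference between cell types against 34 without it, 1 of them shared, and all 34 kept their sign. The deviations from group means of 7 of the 9 pairs correlated above 0.1 (-0.214 to 0.466). These deviations still hold the replicate 3 difference. In the residuals of the main fit, where it is removed, 2 of the 9 pairs did (-0.3165 to 0.3). Whether paired arrays share more than a number was not tested. Over the alternatives the number of genes called in p53ER cells, 1325 as reported, ran from 109 to 2523. Array weights gave 2523 (1221 higher, 1302 lower), 2778 in uninfected cells and 382 for the difference between cell types. A minimum fold of 1.5 gave 109 (42 higher, 67 lower). Replicate 3 against replicate 1 alone gave 827 (348 higher), and against replicate 2 alone 456 lower. Without the 3 outlying arrays uninfected cells had 2381 and the difference 153. Without the 2 farthest arrays, chosen after seeing the data, p53ER cells had 2269 (1069 higher, 1200 lower), uninfected cells 1993, the difference 126 and the test across conditions 5. Leaving out the 0 h arrays gave 738 (292 higher, 446 lower) and the 4-OHT arrays 554 (238 higher, 316 lower), with fewer arrays compared. A prior without trend and robustness gave 18 for the difference. Leaving out each p53ER array in turn gave 652 to 1551 called, 283 to 783 higher, 369 to 768 lower and 3 to 59 for the difference. The cause of these changes was not tested, and settings that leave out arrays also have fewer arrays to compare.

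With a minimum fold of 1.5, 8 NRF2 targets, 11 mitotic genes, 1 p53 target and 3 chemokines were called, and under all other settings 16 to 22, 22 to 38, 6 to 15 and 3 to 6. No setting moved the median of all genes by more than 0.0334. All 99 called genes named by the rule kept their sign under every alternative and 46 kept their call under all. The rule picked them on the same arrays, so the kept sign is no separate support. Leaving out 1 array ended the call of 35, most often the 4-OHT (28), vehicle (24) and 0 h (17) arrays of replicate 3. Ccnd1, Ddit3, Ccl7, Nop56, Ccnd2, Rfc4 and Tagln lost it without 6 or more of the 9 arrays. Others named by the rule that lost it at least once were Col1a1, Dusp4, Stat2, Trp53inp1, Acta1, Bnip3, Mycn, Prim1, Ahrr, Atf5, Car9, Ccl2, Lox, Sqstm1, Thy1, Adm, Bdnf, Ctsb, Dcxr, Ddit4l, Eln, Gas6, Gpnmb, Gstk1, Il11, Mdm2, Pdia4 and Tcof1. The sign turned in 3 genes that were not called: Dlk1 (0.0083 against replicate 1 alone, 0.0354 without the vehicle array of replicate 3 or all vehicle arrays, and -0.444 to 0.0354 over single arrays left out), Krt5 (0.20 without the 3 outlying arrays) and Cxcl10 (0.104 without the 4-OHT array of replicate 3 or all 4-OHT arrays, and -0.324 to 0.104 over single arrays left out).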

Other observations

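Groups of genes looked at after their values were seen are given here as values of the p53ER difference, with the adjusted p of the limma fit over all genes as the call. Among imprinted genes, which are expressed from 1 parental allele, Meg3 was at -1.53, Rian at -1.62, Plagl1 at -1.54, Sgce at -1.31, Ndn at -1.12 and Grb10 at -0.91, all called lower in replicate 3. Mest, at -1.61, was not called (adjusted p = 0.0557 in limma), nor were Dlk1 (-0.20), Igf2 (-0.10), Cdkn1c (0.21) and Gnas (-0.17). Meg3, Plagl1, Sgce, Ndn and Grb10 were called lower in replicate 3 of uninfected cells too, while Dlk1 was higher there, by 1.37.

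Of single genes picked after their values were seen, the collagen Col2a1 was at -2.12, Sox6 at -2.06, the matrix protein Fmod at -1.91, Col11a2 at -1.78 and Comp at -1.53, all called, while Sox9 (-0.40) and Acan (0.21) were not. The nuclear lamina gene Lmnb1 was at -1.68 (SE 0.22), and the lamina-associated gene Tmpo at -1.002 (SE 0.10). The chromatin genes Hmgb2 (-0.67) and H2ax (-0.68) were called lower. In uninfected cells Tmpo was at -0.11 and H2ax at 0.15. Tmpo and H2ax were called for the difference between cell types, unlike Lmnb1 and Hmgb2. The metallothioneins Mt1 (1.14) and Mt2 (1.61), which bind zinc and other metals, were called higher. They are near neighbours in sequence, so the split between them is uncertain. The Y-linked genes Eif2s3y (0.12), Uty (0.17) and Kdm5d (-0.40) and the X-linked Xist (0.09) were not called.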
